A study of Mus musculus with 6 samples.

Results

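Dense regions of YAP binding are stretches of the genome where sites found in both tumor YAP libraries lie close together. A site was a pair of mutually nearest peak summits of the 2 tumor YAP libraries, at most 200 bp apart, placed at their midpoint. Sites on chromosomes 1 to 19 and X were joined into a chain when consecutive sites lay within 12500 bp, and a chain of 4 or more sites, from its first to its last site, was called a dense region. This gave 717 dense regions out of 20671 chains, and they held 3526 of 29468 sites (11.97%). The regions were thus chosen by the tumor YAP summit positions, and the numbers of those summits inside are given as a description without a test.

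Chromatin immunoprecipitation with 50 bp paired reads was made on epithelium of the mouse gastric corpus, which had been detached by EDTA, then fixed and frozen with no time in culture. Normal tissue was wild type (WT) and tumor tissue had the genotype CluCreERT2;R26rtTA;HA-Yap+, in which a tamoxifen-dependent Cre at Clu and a doxycycline-dependent transactivator at R26 control HA-tagged Yap. Every library, wild type included, carries the same protocol, with tamoxifen given on 5 days at 2 mg and food with doxycycline following for 14 days. H3K27ac was measured in 1 normal and 1 tumor library, and YAP in 2 normal and 2 tumor libraries, all of them bulk preparations in which fewer cells of a type and less signal per cell cannot be told apart. The labels do not say that libraries of a group are separate animals.

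Inside the peak names, the genotype word of YAP normal 2 is the one used for tumor H3K27ac, and that of YAP tumor 1 is the one used for normal H3K27ac. Libraries are called by their labels below, and each direction between YAP groups rests on those labels. On the 20 chromosomes used, the lists held 22386 normal and 66532 tumor H3K27ac summits, 1574 and 2121 normal YAP summits, and 38227 and 53831 tumor YAP summits. Sequencing depth is unknown, because summit lists keep no read totals. The label was checked on cell type markers with an H3K27ac summit within 1 kb of the gene, in the lists as deposited and with the tumor list cut to its best-scored summits at the length of the normal list, called equal length below. Of 20 parietal cell genes 19 had one in each list, and 15 in tumor at equal length. Of 14 pit cell genes 12 had one in each list, and 5 in tumor at equal length. Of 14 chief cell genes 9 had one in normal and 10 in tumor, 5 at equal length, with Pga5 and Lipf lacking one in both. Of 18 fibroblast, muscle and endothelial genes 6 had one in normal and 16 in tumor, 6 at equal length, and of 20 immune genes 3 and 9, with 4 at equal length. The part of such cells in the results below was not tested.

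YAP is a transcriptional coactivator without a DNA-binding domain of its own, and it reaches chromatin mainly through TEAD transcription factors, often at elements that AP-1 factors also occupy. The Hippo kinases hold it in the cytoplasm by phosphorylation, and released YAP drives growth and regenerative programs in epithelia, the stomach included. H3K27ac marks active promoters and enhancers, and long runs of enhancers joined over the distance used here are commonly studied as units around genes of cell identity.

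Promoter sequences are shown first for the genes of the lists described below that had a dense-region site inside the promoter window (250 bases before to 50 after a start) and a TEAD or AP-1 motif there. They are RefSeq sequences of build GRCm38.p6, covering the 250 bases before the start in the direction of the gene. The TEAD motif CATTCC and the AP-1 motif TGANTCA were searched on both strands, and each match is in capitals (GGAATG is CATTCC on the other strand). The last sequence belongs to a gene of the interferon zeta cluster and has neither motif; it stands for a repeated family that filled 1 of the largest regions.
Amotl2 (chr9:102717554-102717803, plus strand): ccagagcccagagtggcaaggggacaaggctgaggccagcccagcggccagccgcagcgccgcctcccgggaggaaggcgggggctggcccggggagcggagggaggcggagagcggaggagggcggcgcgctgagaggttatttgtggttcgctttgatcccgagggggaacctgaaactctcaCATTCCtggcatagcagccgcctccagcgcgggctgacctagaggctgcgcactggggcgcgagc
Elf3 (chr1:135258473-135258722, minus strand): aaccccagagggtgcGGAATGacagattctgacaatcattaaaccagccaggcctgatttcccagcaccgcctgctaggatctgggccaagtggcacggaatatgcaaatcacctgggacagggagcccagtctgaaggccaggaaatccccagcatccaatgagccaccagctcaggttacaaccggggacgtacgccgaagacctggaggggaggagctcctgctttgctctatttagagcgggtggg
Actn4 (chr7:28962333-28962582, minus strand): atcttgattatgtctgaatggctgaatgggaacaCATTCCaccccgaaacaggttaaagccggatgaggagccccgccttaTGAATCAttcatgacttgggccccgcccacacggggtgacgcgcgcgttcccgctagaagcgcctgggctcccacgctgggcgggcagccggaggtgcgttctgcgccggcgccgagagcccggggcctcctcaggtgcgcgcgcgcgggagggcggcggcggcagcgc
Erbb2 (chr11:98412234-98412483, plus strand): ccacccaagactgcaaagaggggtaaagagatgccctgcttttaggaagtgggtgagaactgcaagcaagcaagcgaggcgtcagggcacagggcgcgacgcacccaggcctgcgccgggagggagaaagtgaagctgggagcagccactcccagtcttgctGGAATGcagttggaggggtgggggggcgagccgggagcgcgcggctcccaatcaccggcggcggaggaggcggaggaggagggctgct
Gkn1 (chr6:87350916-87351165, minus strand): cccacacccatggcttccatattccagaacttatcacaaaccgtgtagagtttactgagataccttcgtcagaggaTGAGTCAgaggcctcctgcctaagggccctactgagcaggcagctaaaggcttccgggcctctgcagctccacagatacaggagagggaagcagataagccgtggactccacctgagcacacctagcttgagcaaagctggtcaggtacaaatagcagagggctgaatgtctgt
Gm13285 (chr4:88800070-88800319, plus strand): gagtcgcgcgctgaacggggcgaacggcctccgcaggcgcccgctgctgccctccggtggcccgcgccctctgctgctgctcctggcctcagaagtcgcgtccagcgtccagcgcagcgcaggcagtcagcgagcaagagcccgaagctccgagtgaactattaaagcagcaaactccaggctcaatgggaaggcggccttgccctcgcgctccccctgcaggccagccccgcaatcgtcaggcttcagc

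The site lay at position -76 from the start at Amotl2, -119 at Elf3, -60 at Actn4, -90 at Erbb2, -170 at Gkn1 and -111 at Gm13285. Amotl2, an angiomotin protein of cell junctions that binds YAP, is a known YAP target, and its promoter site ranked 995 and 994 in the 2 tumor lists. Elf3 encodes an epithelial ETS factor, Actn4 an actin crosslinker, Erbb2 a receptor of the EGF family and Gkn1 the pit cell protein gastrokine 1. Actn4 was the one promoter of the 5 with both motifs. Among the 16 list genes with a dense-region site in the window, 11 had neither motif, with Wwc1, Fos, Fosb, Junb, Mafg, Gata5, Sox21, Tgif1, Cldn18, Krt8 and Rab3d making up that group.

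Motif shares at promoters with a dense-region site were close to or below those of all promoters. CATTCC was in 77 of 549 windows with a dense-region site (14.0%, 95% Wilson interval 11.4 to 17.2), and in 13.5% of all 21045 windows. Windows with a site of a chain of 2 or 3 had it in 10.2% and those with a single site in 10.3%. TGANTCA was in 5.28% of the dense windows (3.70 to 7.48) and in 7.04% of all windows. A letter match is a description of the window and not a binding site, and sites away from these windows were not searched. Wilson intervals here and below cover counting error only.

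Most dense regions were small. Of the 717, 571 had 4 or 5 sites, 132 had 6 to 9 and 14 had 10 or more. Their median span was 23.4 kb (3.39 to 97.5 kb), they covered 18.2 Mb in all, and consecutive sites lay a median of 6640 bp apart. Chromosome 11 had the most, with 75 regions and 361 sites, and X had 7 regions and 48 sites. Just inside the threshold were 406 chains of exactly 4 sites (median span 19.8 kb, tumor H3K27ac inside 87.7%) and just outside it 1161 chains of exactly 3 (13.1 kb, 80.3%). The share of individual sites with tumor H3K27ac within 1 kb was 54.3% in the chains of 4 and 54.8% in those of 3. Another chain began between the joining distance and 13 kb away at 47 dense regions, so a slightly longer joining distance would have extended those.

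Dense regions were not made of the strongest YAP sites. The median deposited score of their sites was 8.08 in tumor 1 and 13.9 in tumor 2, against 8.74 and 14.5 at sites that stood alone and 7.91 and 13.4 in chains of 2 or 3. Sites in the best-scored 10% of the tumor 1 list made up 10.7% of dense sites and 14.5% of single sites, and for tumor 2 these were 15.1% and 19.7%. Chains of 2 or 3 had 10.1% and 14.7%, so dense regions did not stand apart from smaller chains here. In the 14 largest regions the shares were 17.7% and 24.5%. The best ranks among these 14 were 30 and 38, in chr6:47740093-47788282, which had 3 and 11 normal YAP summits. Besides it, only the chromosome 9, interferon zeta and histone regions described below had a site ranked 1000 or better in either list. The part of these regions in the shares was not tested. At the top of both lists, 84 of the 643 sites ranked 1000 or better in both tumor libraries were in a dense region (13.1%, 10.7 to 15.9, against 11.97% of all sites), spread over 52 regions.

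By library, YAP tumor 1 had 3686 summits in the dense regions (widened by 100 bp at each end) and YAP tumor 2 had 4090. Counts per region ran from 4 to 32 in tumor 1 and from 4 to 33 in tumor 2, with medians of 4 and 5. The libraries gave equal counts in 364 regions, tumor 2 had more in 313 and tumor 1 more in 40. From tumor 1 alone the rule would have given 1303 regions and from tumor 2 alone 3166. Each of the 717 overlapped a region of both sets, which the rule makes nearly certain, since every site holds a summit of both lists.

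Normal YAP summits were few by number in the dense regions and sat in a small number of them. The normal lists are also short, with 1574 and 2121 summits. By share of each list, 3.7% of YAP normal 1 and 6.6% of YAP normal 2 summits lay in dense regions. For the tumor lists, from which the regions were built, the shares were 9.6% in YAP tumor 1 and 7.6% in YAP tumor 2. YAP normal 1 had 58 summits in 26 regions and YAP normal 2 had 141 in 67, with 72 regions holding a summit of either and 21 of both. The 10 fullest regions held 41 of the 58 and 72 of the 141. A normal 1 summit lay within 1 kb of 1.53% of dense sites (1.18 to 1.99), where all sites had 1.32%, and a normal 2 summit lay near 3.97% (3.37 to 4.67), where all sites had 4.34%. The shares of all sites lay inside both intervals. With 2 libraries against 2 an exact permutation test cannot go below 0.333, so none was made. Of the 72 regions, 67 remain counted without YAP normal 1 and 26 without YAP normal 2, so the number rests mostly on YAP normal 2. If the words in the peak names were followed, sites of YAP tumor 2 and YAP normal 2 would give 10 dense regions.

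**Figure D1:**
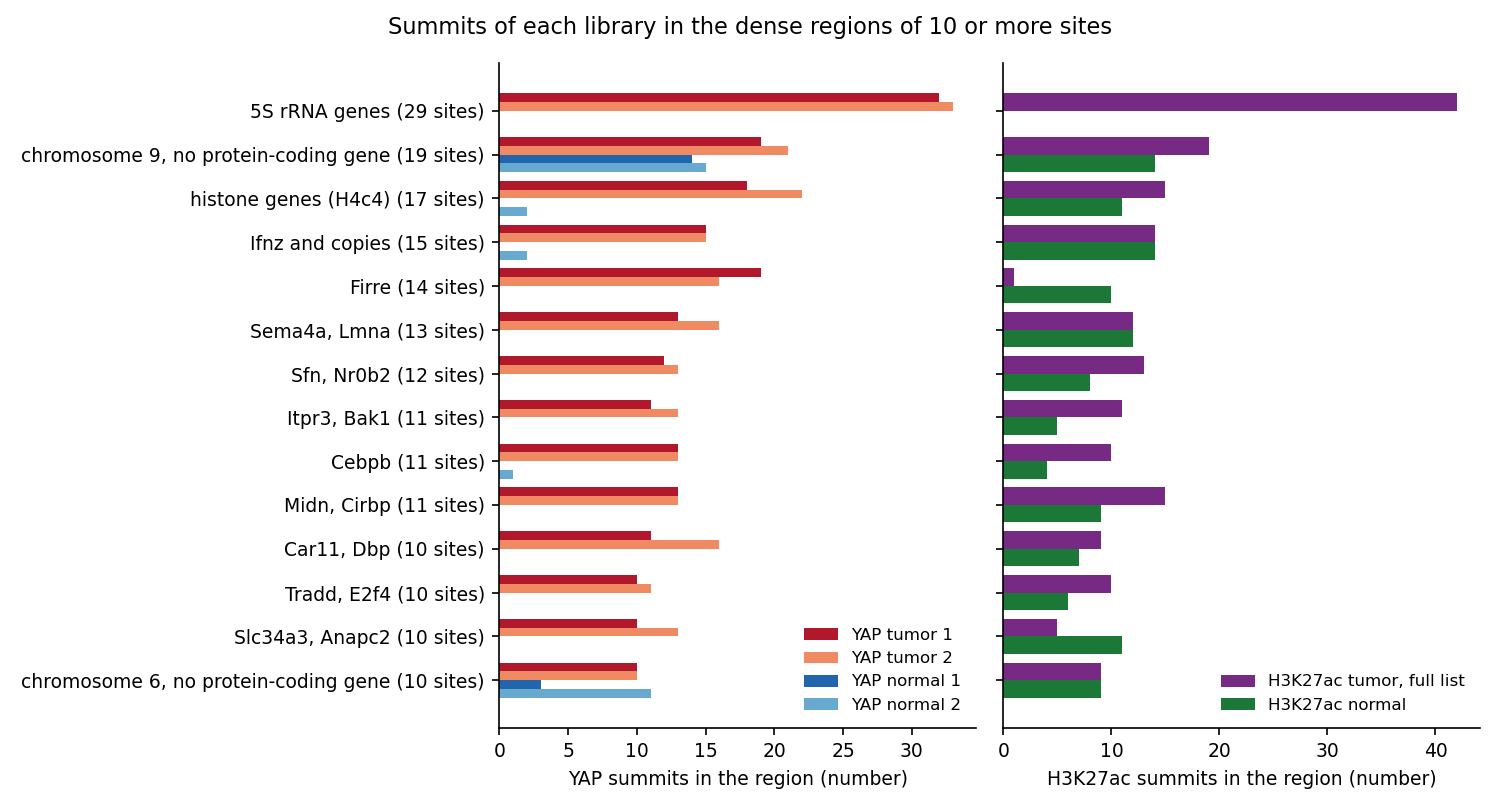
Summits of each library in the 14 dense regions of 10 or more sites, as bars (left: YAP libraries, right: H3K27ac libraries, both axes numbers of summits from 0). The 5S rRNA region has 42 tumor and 0 normal H3K27ac summits, and the gene-free region of chromosome 9 has 14 and 15 normal YAP summits.

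Several of the largest regions were arrays of repeated genes. The region with the most sites, 29, lay at chr8:123538929-123623728 over 47 annotated rRNA genes, the 5S rRNA array, whose product is a part of the large ribosomal subunit. It held 32 and 33 tumor YAP summits, no normal YAP summit, 42 tumor H3K27ac summits and no normal one. None of the 42 was among the 22386 best-scored tumor H3K27ac summits. The best rank of a YAP site there was 8167 in tumor 1 and 15113 in tumor 2. The region was thus the fullest by number, with no YAP site near the top of either list.

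Histone genes of chromosome 13 formed a second such group, with 33 of its 53 clustered histone genes in 4 dense regions. The largest of them, chr13:23517589-23585826, had 17 sites over 15 genes from H4c8 to H2bc6, and 12 of the sites lay within 1 kb of a listed start. There YAP tumor 1 had 18 summits, tumor 2 had 22, normal 1 had 0 and normal 2 had 2. H3K27ac summits numbered 11 in normal and 15 in tumor, 14 of them at equal length. Over the 4 regions together H3K27ac numbered 26 in normal and 35 in tumor (32 at equal length), so the tumor list was ahead even after cutting. Inside the gene bodies on the map of this region, both H3K27ac lists have a summit at 9 of the 15 genes, H4c6 and H1f3 among them. The tumor list, as deposited, alone has one at the other 6, which are H4c8, H2ac10, H3c8, H2bc7, H3c4 and H4c4. Normal summits did lie close outside H4c8 and H2bc7. One is at 13.193 kb, where H4c8 begins at 13.455 kb, and one at 57.051 kb, where H2bc7 ends at 56.618 kb.

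The interferon zeta cluster at chr4:88757710-88806060 had 15 sites over 14 genes, Ifnz and 13 Gm genes beside it. Both tumor YAP libraries had 15 summits there, normal 2 had 2 and normal 1 none. The normal and the tumor H3K27ac lists each had 14 summits, and all 14 of the tumor ones stayed at equal length. A site lay inside the promoter window of 8 of the genes. Some windows of the 14 genes are near copies of each other. Of 91 pairs, 7 were identical over all 300 bases. At least 99% of bases were identical in 19 pairs, which involved 12 of the 14 genes. The other pairs had at most 65.3% identical bases. Whether reads that match several copies were kept is not given in the sources used here, and the part of such reads in these counts was not tested.

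On the X chromosome, dense regions lay at a pair of long non-coding RNA genes that contain tandem repeats and take part in the folding of the inactive X. At Firre (chrX:50566570-50635381) 13 of the 14 sites lay inside the gene. YAP tumor 1 had 19 summits and tumor 2 had 16, with none in either normal library, and H3K27ac had 10 normal summits and 1 tumor summit. At 4933407K13Rik, the transcript of the Dxz4 repeat (chrX:75729990-75764558), 7 sites went with 7 normal and 7 tumor H3K27ac summits, and none of the latter stayed at equal length. Firre and 4933407K13Rik were both among the 10 regions with the largest normal excess of H3K27ac at equal length.

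Transfer RNA and small nuclear RNA genes were more frequent at dense sites than at other sites. Looking at the list of regions first and then counting, 26 of 717 had a site within 200 bp of a tRNA, rRNA or snRNA gene. Of dense sites 1.64% were that close to a tRNA gene (1.27 to 2.12; 58 sites in 18 regions), against 0.398% of sites in chains of 2 or 3 and 0.198% of single sites. For snRNA genes the shares were 0.567%, 0.120% and 0.0397%, and all 28 sites at rRNA genes were in dense regions. These genes come in arrays, which by itself puts sites near each other, and the comparison was made after the regions had been seen.

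Some examples show how the tRNA regions differ in H3K27ac. At chr1:171066602-171081772, 4 of 4 sites were at tRNA genes, with 9 and 5 tumor YAP summits, 0 normal and 4 tumor H3K27ac summits. Beside Aurkb and Ctc1 (chr11:69036099-69045736), 4 of 6 sites were at tRNA genes, and each tissue had 1 H3K27ac summit. Abt1 shared its region (chr13:23401874-23453551) with 17 tRNA genes, and 6 of the 9 sites lay at them. Without the 26 regions at such small RNA genes, 691 dense regions remain.

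Other large regions lay over other protein-coding genes, and most had no normal YAP summit. The same held for dense regions in general, of which 72 of 717 had one. Sema4a, Lmna, Mex3a, Rab25 and Lamtor2 shared the longest region, 97.5 kb at chr3:88456168-88553656, with 13 sites. Lmna encodes nuclear lamins A and C, and Rab25 an epithelial vesicle GTPase. YAP summits there numbered 13 and 16 in tumor and 0 in both normal libraries, and H3K27ac had 12 in each list, of which 5 tumor summits stayed at equal length. At Sfn, an epithelial member of the protein family that holds phosphorylated YAP in the cytoplasm, 12 sites spanned 87.6 kb with Nr0b2 and 3 other genes, and H3K27ac had 8 normal and 13 tumor summits, 6 of the latter at equal length.

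Cebpb, Bak1 and Midn each lay in a region of 11 sites. Cebpb, a factor of inflammation and differentiation, lay at the 66.0 kb region chr2:167632164-167698187 with 4 normal and 10 tumor H3K27ac summits, 2 of the latter at equal length, and 1 summit of YAP normal 2. Bak1, a mitochondrial cell death effector, and Itpr3, a calcium release channel, shared a 48.9 kb region with 5 normal and 11 tumor H3K27ac summits. Midn and Cirbp, a cold-induced RNA-binding protein, lay in a 58.2 kb region with 9 and 15. All 3 therefore had more H3K27ac summits in the tumor list as deposited, while at equal length the tumor counts were 2 at Cebpb, 6 at Bak1 and 9 at Midn, and only Bak1 still had more than normal.

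The densest regions by sites per kb were short. The highest, 1.46 sites per kb, had 5 sites in 3.43 kb at chr1:24612500-24615927, with no protein-coding gene, no H3K27ac summit in either list and no normal YAP summit. That interval is known as a nuclear copy of mitochondrial DNA, and the best rank of its sites was 46 in tumor 1 and 50 in tumor 2. Cfl1, the actin-severing cofilin 1, and Mus81 shared 4 sites in 3.39 kb with 3 normal and 2 tumor H3K27ac summits. Mst1r, the receptor of macrophage-stimulating protein, had 4 sites in 5.56 kb with 3 normal and 1 tumor summit, and Id1, an inhibitor of basic helix-loop-helix factors, had 5 sites in 7.62 kb with 2 and 3.

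Dense regions overlapped genes more often than not: 597 of 717 touched a protein-coding gene and 120 did not, and 97 of those 120 lay within 50 kb of one. Longer stretches touch genes more easily, and no such share is given for smaller chains, whose spans are shorter. The share is therefore not read as a trait of dense regions. In total 1248 of 21631 protein-coding genes were overlapped (5.77%). The overlapped genes were shorter than all genes, with a median length of 10.7 kb against 17.3 kb. Starts, which were listed for 17274 of the genes, lay within 1 kb of 23.9% of dense sites (22.5 to 25.3), where all sites had 28%. At 208 regions 2 or more genes started near a site and at 294 none did.

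H3K27ac was found inside most dense regions in both tissues. A tumor summit lay inside 660 of 717 (92.1%, 89.8 to 93.8) and a normal summit inside 647 (90.2%, 87.8 to 92.2), where all chains of 2 or more sites had 61.2% and 56.7%, and chains of more sites are also longer. In 620 regions both lists had a summit, in 40 tumor alone, in 27 normal alone and in 30 neither. At equal length the order turned: tumor summits lay inside 559 regions (78.0%), with both tissues in 543, tumor alone in 16 and normal alone in 104. With 1 H3K27ac library per tissue there is no replicate check of any difference between them.

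Counted at equal list length, dense regions held fewer tumor than normal H3K27ac summits, 1217 against 1852. The tumor share was 39.7% (37.9 to 41.4), and 39.1% in chains of 2 or 3 sites, so dense regions did not stand apart from smaller chains. As deposited, the lists had 2403 tumor summits in them, a share of 56.5%, while tumor summits made up 74.8% of both lists genome-wide. Which tissue had more summits inside thus depended on the list length, and equal-length lists hold equal numbers genome-wide by construction. Regions with 1 gene or more had a tumor share of 40.9% at equal length and gene-free regions 31.0%.

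**Figure D2:**
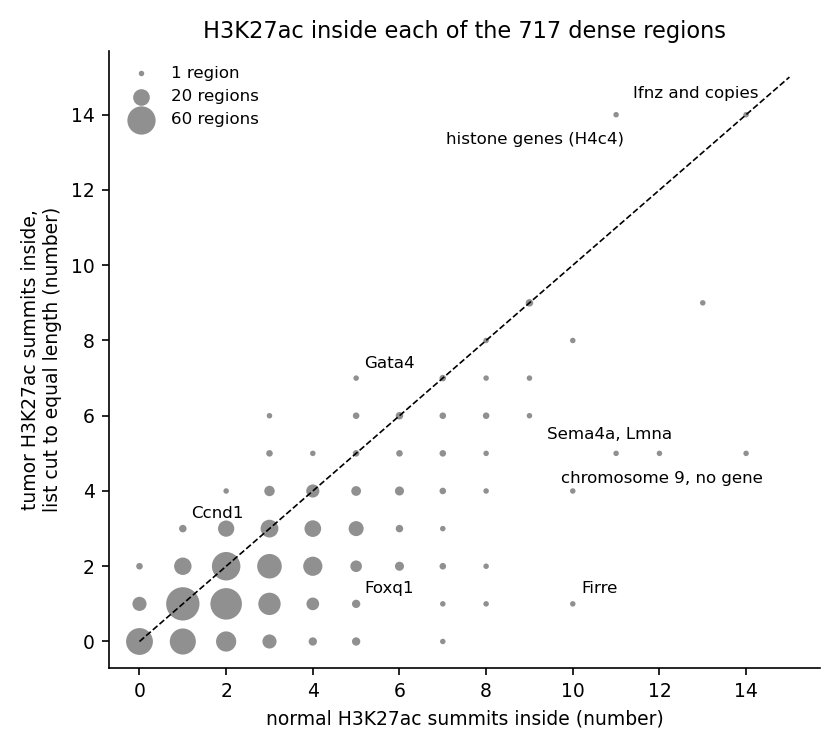
H3K27ac summits inside each dense region, normal on the horizontal axis and tumor (list cut to the 22386 best-scored summits) on the vertical axis, with point area growing with the number of regions and the dashed line at equality. More regions lie below the line (395) than above it (76).

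A 2-fold difference in (summits + 1) at equal length was reached towards normal by 181 regions (25.2%) and towards tumor by 19 (2.65%). Over all 5544 chains of 2 or more sites these shares were 20.6% and 4.83%. The largest tumor excess was 3 summits and was found in 2 histone regions, the H4c8 to H2bc6 region (11 normal, 14 tumor) and that of Prss16, H2ac12 and H4c9 (3 normal, 6 tumor). Excesses of 2 summits included Gata4, Ccnd1, Kdm6b, Spag9, Slc45a3 and the Il17c, Cyba and Mvd region.

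Gata4, an endoderm factor of the stomach, had 6 sites in 38.0 kb. Both tumor YAP libraries had 6 summits, normal 1 had none and normal 2 had 1, and H3K27ac had 5 normal, 8 tumor and 7 equal-length tumor summits. Ccnd1 encodes cyclin D1, which drives entry into the cell cycle. Its region of 13.8 kb, shared with LTO1, had 4 sites, 4 summits in each tumor YAP library and none in normal, and 1 normal, 6 tumor and 3 equal-length tumor H3K27ac summits. On the map the normal summit lies 11.7 kb from the first site, where the tumor list also has one, and the other tumor summits have no normal counterpart.

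The largest deficits at equal length were 9 summits, at Firre (10 normal, 1 tumor) and at the gene-free region of chromosome 9 (14 and 5). As deposited, the tumor list still had 1 summit at Firre but 19 in the chromosome 9 region, more than normal. Lmna and Sema4a (12 and 5), Terf2 and Cyb5b (7 and 1), Slc34a3 and Anapc2 (11 and 5), Luc7l and Rgs11 (10 and 4), and Ptms and Mlf2 (7 and 2) followed among regions with ordinary genes. Terf2 encodes a telomere-binding protein and Anapc2 a subunit of the anaphase-promoting complex. The chromosome 9 region also had many normal YAP summits, and the Lmna, Terf2 and Luc7l regions had none.

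H3K27ac near a site was more frequent in larger chains when sites at gene ends were left out. Among sites over 1 kb from every listed start and every protein-coding gene end, a tumor summit lay within 1 kb of 24.4% of single sites (23.5 to 25.3), 30.8% in chains of 2 or 3 (29.8 to 31.9), 38.3% in chains of 4 or 5 (35.9 to 40.7) and 46.2% in chains of 6 to 9 (42.2 to 50.3). Normal H3K27ac gave 21.5%, 29.3%, 34.4% and 43.5%. Within 1 kb of a listed start the tumor share was 96.1% in dense regions and 96.3% at single sites, and the normal share 88.2% and 88.8%. Shares at starts were close to their upper limit and so could hardly show a gradient. Away from gene ends the order of these classes was the same in both tissues. Neighbouring sites can share 1 H3K27ac summit, so they are not independent.

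In the 14 largest regions the tumor share at such sites was 65.2% and the normal share 41.7%. The 5S rRNA region decided that gap: without it the shares were 54.7% (44.2 to 64.7) and 55.8% (45.3 to 65.8). Leaving out regions with a normal YAP summit instead, which keeps the 5S rRNA region and drops that of chromosome 9, gave 58.9% and 23.3% of 73 sites, so the balance in this class depends on which regions are kept. For all dense sites away from gene ends the shares were 41.6% and 37.1% with it and 40.9% and 37.5% without it. Counting all sites wherever they lay, 58.1% of dense sites (56.4 to 59.7) had a tumor and 52.7% (51.0 to 54.3) a normal summit within 1 kb, where all sites had 52% and 47.4%. At equal list length the tumor share was 40.8% for dense sites and 39.1% for all sites.

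**Figure D3:**
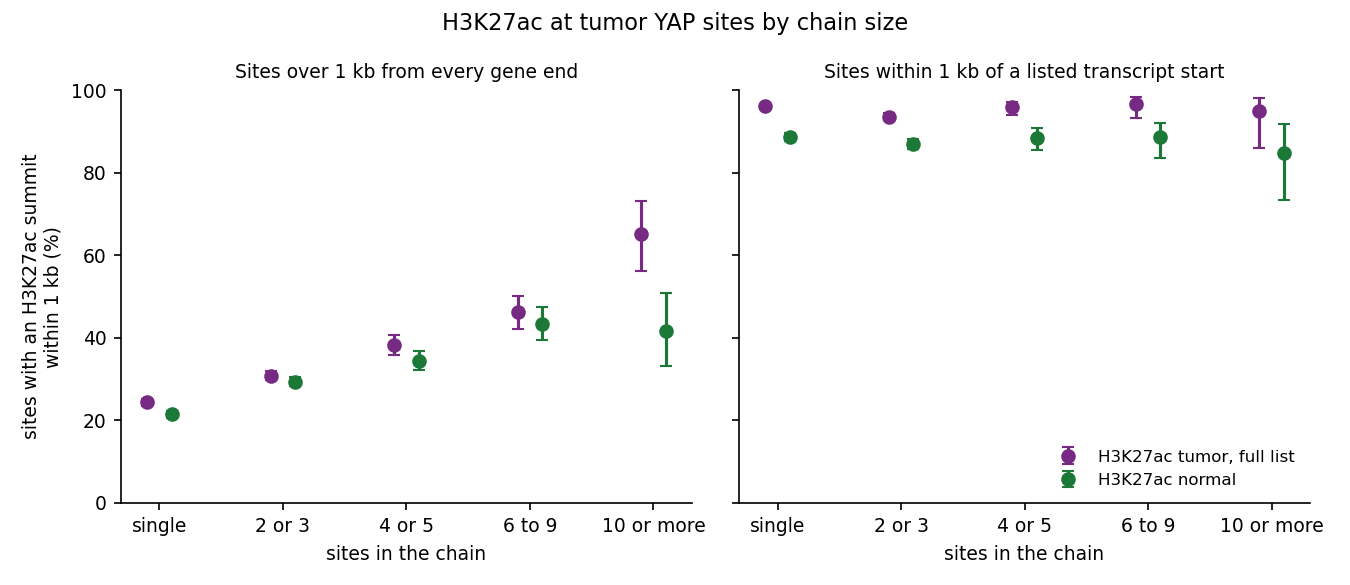
Percent of tumor YAP sites with an H3K27ac summit within 1 kb, by the number of sites in their chain, for sites away from gene ends (left) and near a listed start (right); points are shares and bars 95% Wilson intervals. On the left the normal share goes from 21.5% at single sites to 43.5% in chains of 6 to 9, and on the right the lowest share is 84.7%.

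Runs of H3K27ac and runs of YAP sites overlapped in part. When H3K27ac summits were chained by the same rule, 236 dense regions (32.9%) overlapped 235 of 629 normal chains of 4 or more (37.4%). With the tumor list as deposited, 421 dense regions (58.7%) overlapped 425 of 3129 chains (13.6%). The 2 lists differ in length, so these shares do not show a change between tissues. In both tissues a large part of the long H3K27ac runs had no dense YAP region.

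Dense regions without a tumor H3K27ac summit were the 27 with normal H3K27ac alone and the 30 with neither. The fullest of them, chr2:75748259-75777387, had 6 sites with 3 normal H3K27ac summits and lay 43.6 kb from Nfe2l2, the oxidative stress factor. Sgf29 (5 sites) and Slc35f5 (5 sites) had 2 and 4 normal summits. Fnip2 and Ints9, with 4 sites each, had none in either list. The best ranks of their sites in YAP tumor 1 and tumor 2 were nevertheless 280 and 250 at Fnip2, and 525 and 746 at Ints9. High-ranked tumor YAP sites thus occurred in dense regions without an H3K27ac summit between their first and last site. Summits just outside an end site were not counted. With regions widened by 1 kb, the share with a tumor summit rose from 92.1% to 96.2% and with a normal one from 90.2% to 94.0%. Some of the regions counted here as lacking a summit therefore have one close to an end.

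Regions with both normal YAP libraries were often free of genes: 9 of 21 overlapped no protein-coding gene, against 120 of all 717. The fullest was chr9:3000450-3038010, at the assembled beginning of chromosome 9, with 19 sites and 14 normal 1, 15 normal 2, 19 tumor 1 and 21 tumor 2 summits. A region of 4.37 kb on chromosome 2, chr2:98662426-98666790, had 4 summits in each of the 4 YAP libraries. The best rank of its sites was 26 in tumor 1 and 28 in tumor 2. Mid1, an X-linked ubiquitin ligase gene at the boundary of the pseudoautosomal region, had 9 sites with 5 and 5 normal and 10 and 14 tumor summits. Sfi1, a centrosomal protein gene, had 9 sites with 3 and 8 normal summits. Tmem267 had 4 sites with 3 and 6. No list of intervals prone to artefact signal was applied here, and the part of such intervals was not tested.

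Among YAP/TAZ targets, 3 of 28 genes were overlapped by a dense region (10.7%, against 5.77% of all genes), namely Amotl2, Wwc1 and Ccnd1. A gene end lay within 50 kb of one at 7 of the 28 (25%, against 13.2%). Other lists lay on both sides of this 25%, with housekeeping genes at 38.9% and integrins and laminins at 6.25%. The share within 50 kb is therefore not read as a trait of the targets. Amotl2 had 4 sites in 16.9 kb, with 4 summits in each tumor YAP library, none in normal, and 2 normal, 7 tumor and 3 equal-length tumor H3K27ac summits. Wwc1, which encodes the upstream Hippo regulator KIBRA, had 4 sites in 24.9 kb, none in normal, and 3 normal, 3 tumor and 2 equal-length tumor H3K27ac summits. Amotl2 and Wwc1 were also the 2 overlapped genes among 28 of the Hippo pathway (7.14%). Neither region had a normal YAP summit, and neither did most dense regions (72 of 717 had one).

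Further targets lay within 50 kb of a dense region that did not overlap them. Nuak2, a kinase, was 4710 bp away from the Tmcc2 region (5 sites, 1 normal and 4 tumor H3K27ac summits, and 1 summit of YAP normal 1). Birc5, the survivin gene, was 15139 bp from the Tha1 region, Axl 43158 bp from a region with 4 normal and 1 tumor H3K27ac summits, and Foxf2 45777 bp from the Foxq1 region. The best known targets were outside: Ccn1 had 1 site in its body, and Ccn2 and Ankrd1 had none. Rbms3 with 7 sites, and Tead1 and Gli2 with 6 each, were in no dense region either, since their sites were spaced more widely. Many sites in a long gene did not make a dense region.

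AP-1 genes were overlapped in 4 of 14 cases (28.6%, against 5.77% of all genes). Fosb had 9 sites with 11 and 12 tumor YAP summits and 7 normal, 10 tumor and 6 equal-length tumor H3K27ac summits. Junb had 7 sites with 8 normal, 8 tumor and 6 equal-length summits, and it shared its region with Prdx2 and Hook2. Mafg, a small Maf partner, had 7 sites with 8, 8 and 4. Fos had 5 sites with 4, 2 and 2, and no site lay in the body of the gene. None of the 4 regions had a normal YAP summit. Jund and Fosl1 had a region within 50 kb, and Jun, Fosl2 and Atf3 had none.

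Foregut and gastric factors were overlapped in 4 of 19 cases (21.1%, against 5.77% of all genes), with Gata5 and Sox21 beside Gata4 and Foxq1. Gata5, a relative of Gata4, had 5 sites with 3 normal, 5 tumor and 3 equal-length tumor H3K27ac summits, and Sox21 had 4 sites with 2, 3 and 1. Foxq1, which drives mucin production in pit cells, had 6 sites in 32.2 kb, 6 and 7 tumor YAP summits, none in normal, and 5 normal, 2 tumor and 1 equal-length tumor H3K27ac summits. On the map its tumor H3K27ac summits lay at 10.2 kb, just outside the gene, and at 11.9 kb, inside it. The normal list had further summits at 0.3, 30.0 and 30.6 kb. Foxq1 and Gata4, both with 6 sites, thus differed in which H3K27ac list had more summits. Sox2, Sox9 and Gata6 were in no dense region.

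Pit cell genes had the highest share of the 18 lists, 6 of 14 (42.9%, against 5.77% of all genes). The 6 lay in 5 regions, since Tff1 and Tff2 share one. Tff2 is also counted in the list of metaplasia and regeneration given below, and Foxq1 in that of foregut and gastric factors. Pit cells are the mucus cells of the gastric surface. Tff1 and Tff2, which encode trefoil peptides of the mucus, had 7 sites in 31.4 kb, 7 summits in each tumor YAP library and none in normal, and 1 normal, 5 tumor and 1 equal-length tumor H3K27ac summits. Gkn1 had 5 sites with 2 normal and 1 tumor H3K27ac summits, Psca, a surface antigen, had 6 sites with 4 and 3, and Mucl3 had 5 sites with 2 and 3. At equal length no pit cell region had more tumor than normal H3K27ac summits. Of all dense regions, 76 of 717 (10.6%) had more, so 5 regions without one do not stand apart. Gkn2 and Gkn3 lay within 50 kb of the Gkn1 region and Capn8 of a region of 7 sites. Thus 9 of 14 had one that near (64.3%, against 13.2% of all genes). These genes are short, with a median length of 5.87 kb, and the list has 14 genes.

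**Figure D4:**
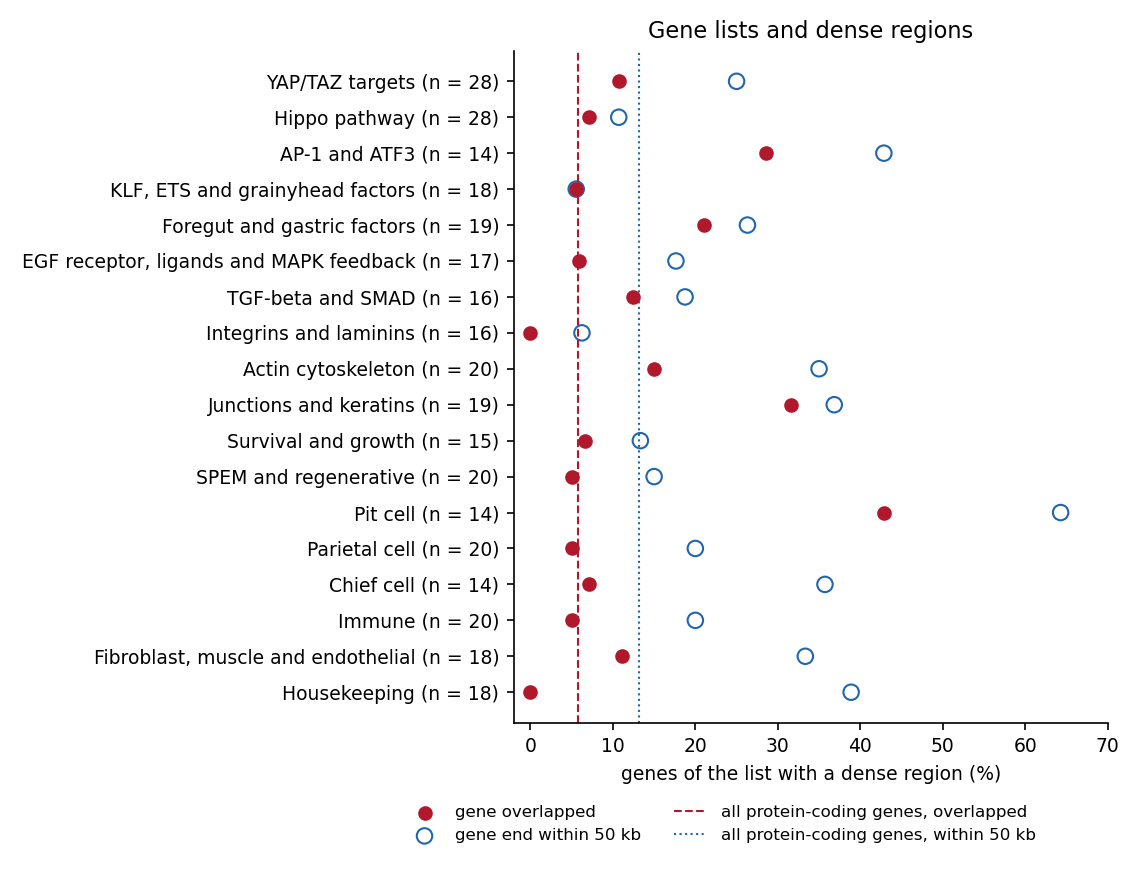
Percent of each list's genes overlapped by a dense region (filled) or with an end within 50 kb of one (open), with lines for all protein-coding genes (5.77% and 13.2%). Pit cell genes are farthest right at 42.9% and 64.3%, and integrin and laminin genes have no overlapped member.

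Junction and keratin genes were overlapped in 6 of 19 cases (31.6%, against 5.77% of all genes). Krt8 and Krt18, the keratin pair of simple epithelia, lie side by side on chromosome 15 and had 8 sites each in 2 neighbouring regions of 30.6 and 56.7 kb. The Krt8 region had 9 and 10 tumor YAP summits and 3 normal, 5 tumor and 2 equal-length tumor H3K27ac summits, and the Krt18 region had 8 and 8, and 5, 5 and 4. Krt19 had 5 sites with 2 normal, 5 tumor and 2 equal-length H3K27ac summits. Cdh1, the E-cadherin gene, had 4 sites with 3, 2 and 2, Ctnnd1, its partner p120, had 5 sites with 4, 5 and 3, and Cldn18, the gastric claudin, had 4 sites with 2, 2 and 1. No normal YAP summit lay in these 6 regions, and the one drawn beside the Krt18 region lies past its last site. Of all 717 dense regions, 72 had a normal YAP summit.

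**Figure D5:**
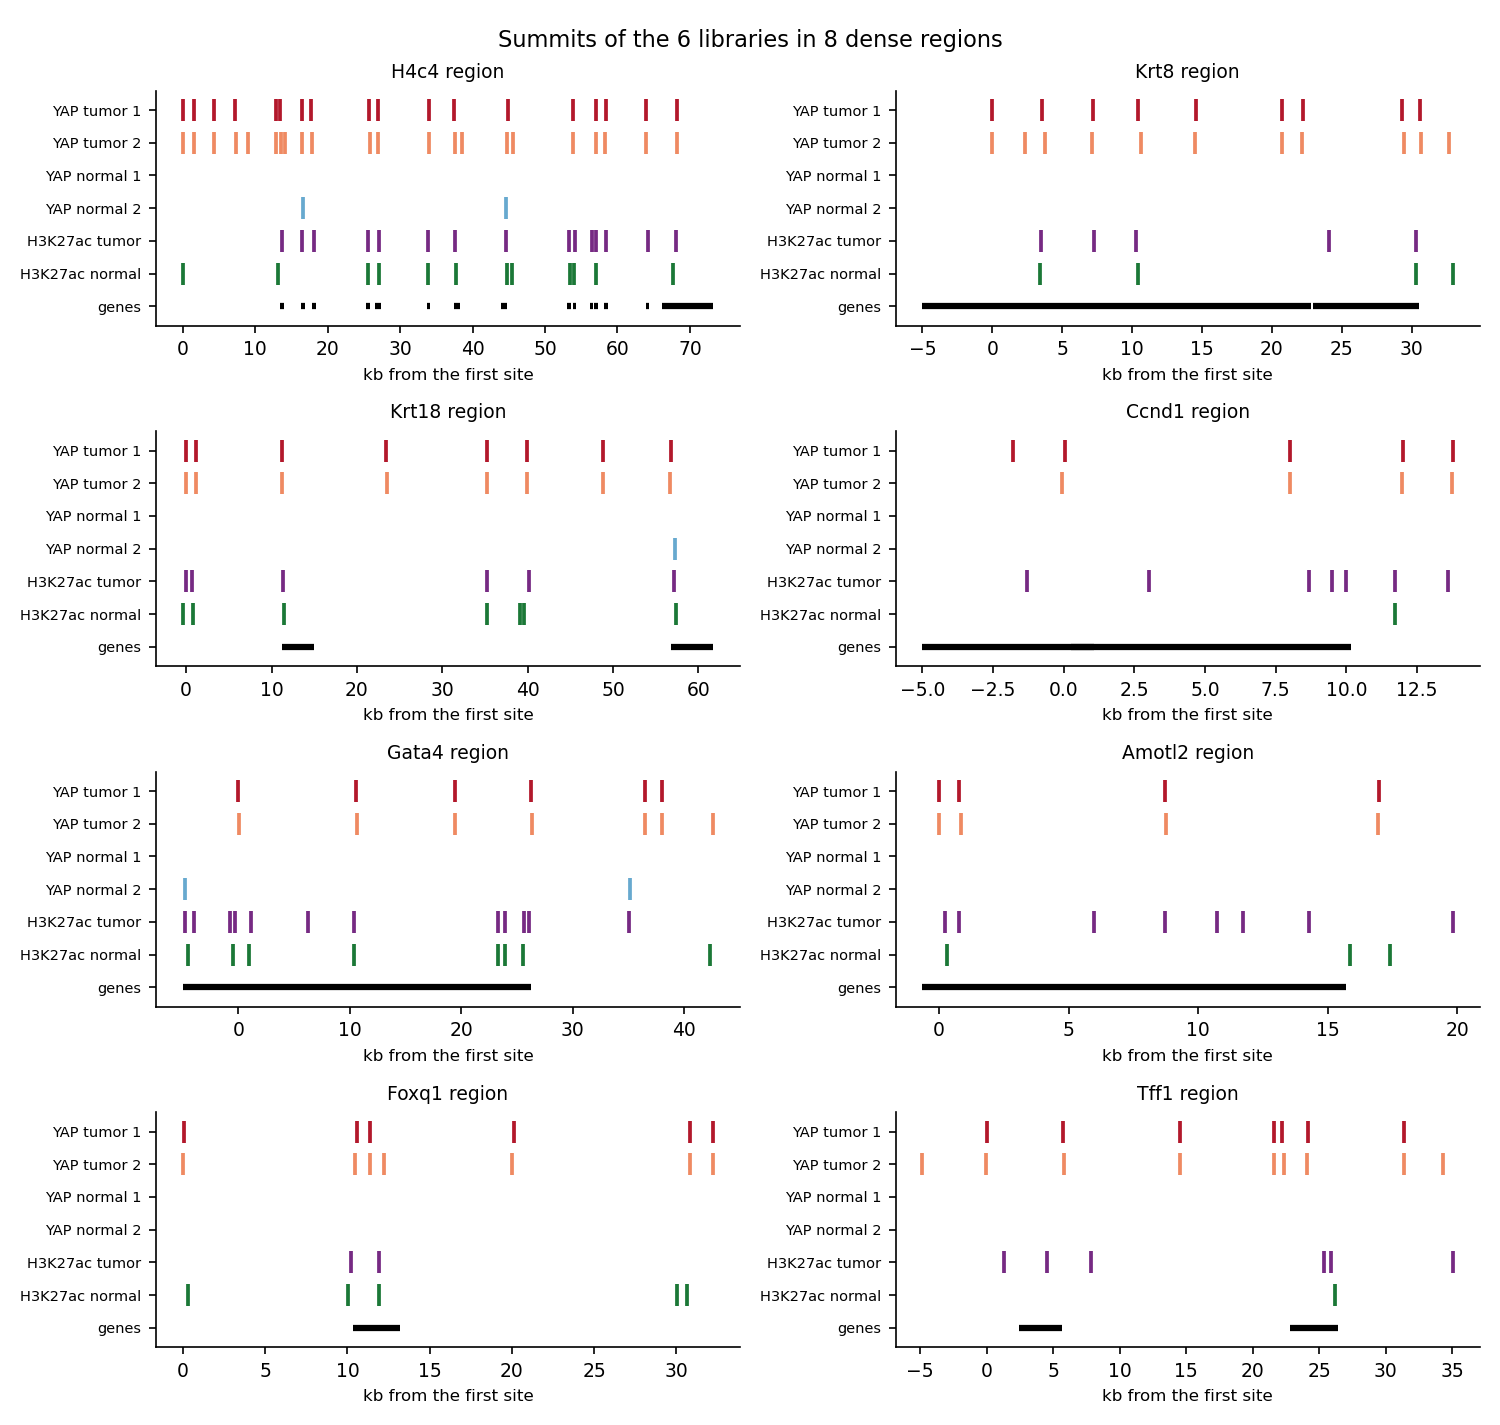
Positions of the summits of each library (ticks) and of genes (black bars) in 8 dense regions with 5 kb on either side, as kb from the first site. In the Ccnd1 and Tff1 regions the normal H3K27ac list has 1 summit each, and in the Foxq1 region it has more than the tumor list.

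Actin cytoskeleton genes were overlapped in 3 of 20 cases (15%, against 5.77% of all genes). Actb had 7 sites with 7 and 10 tumor YAP summits and 4 normal, 3 tumor and 2 equal-length H3K27ac summits, Actg1 had 4 sites with 3, 4 and 4, and Actn4 had 4 sites with 4, 5 and 3. Of the EGF receptor list 1 of 17 was overlapped, Erbb2, with 5 sites, 1 summit of YAP normal 2, and 4 normal, 3 tumor and 2 equal-length H3K27ac summits. Tgif1, a repressor of TGF-beta signalling, and Smad7, an inhibitor of its receptors, were 2 of 16 in their list. Smad7 had 5 sites with 3 normal, 8 tumor and 4 equal-length H3K27ac summits and Tgif1 had 4 sites with 1, 2 and 2. Elf3 was the 1 of 18 among the KLF, ETS and grainyhead factors, with 5 sites and 3, 3 and 2.

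Other lists were near the share of all genes or below it. Integrins and laminins had 0 of 16 and housekeeping genes 0 of 18, although 7 of the 18 housekeeping genes had an end within 50 kb (38.9%). Survival and growth genes had 1 of 15, Ccnd1, while Myc and Cdk6 had 2 and 4 sites in their bodies and no dense region. Genes of spasmolytic polypeptide-expressing metaplasia and regeneration, a state of the injured corpus, had 1 of 20, which was Tff2, also counted as a pit cell gene. Clu, whose promoter drives the Cre, had 1 site and no dense region. Parietal cell genes had 1 of 20 (Slc4a2, the basolateral anion exchanger) and chief cell genes 1 of 14 (Rab3d, a GTPase of secretory granules).

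Markers of cells outside the epithelium also lay in or near dense regions. Immune genes had 1 of 20 overlapped (5%) and 4 within 50 kb (20%), against 5.77% and 13.2% of all genes. The overlapped one was Cd68, in a 6-site region that also holds Eif4a1 and Senp3, while no H3K27ac summit of either library lay within 1 kb of Cd68 itself. The fibroblast, muscle and endothelial list had 2 of 18 (11.1%), Pecam1 and Vwf, both genes of endothelial cells, and 6 within 50 kb (33.3%). Pecam1 had 4 sites with 4 normal, 1 tumor and 1 equal-length tumor H3K27ac summits, and Vwf had 4 sites with 0, 2 and 0. All lists were chosen with results of these data known, and their shares are set beside those of all genes as a description.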

How the data were processed

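Each of the 6 libraries is a deposited list of 1 bp peak summits, 1 list per library; the authors used Bowtie2, MACS2 and build GRCm38 (mm10), per the submitters' processing notes. As to versions, thresholds, control libraries and reads with several matches, the sources used here give nothing. The deposited score is the authors' −log10 significance, from either q-values or p-values (not stated), and served only to rank summits within a list. Computations ran in Python 3.11.15 with the packages scipy 1.17.1, pandas 2.3.3 and numpy 2.4.6; matplotlib 3.10.9 drew the figures. Matching and chaining were checked on simulated summits.

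H3K27ac was counted from first to last site, with the tumor list as deposited and cut to its 22386 best-scored summits. Gene positions (21631 protein-coding genes) and promoters came from RefSeq tables of GRCm38.p6. The members and the 18 gene lists were chosen with earlier results of these data known. The rule for naming covered all YAP/TAZ targets and Hippo genes, up to 5 genes of each other list, and the 20 regions with most sites. It also covered the first 10 regions by density, by H3K27ac excess, by deficit, with both normal YAP libraries, and without tumor H3K27ac. Not every member that the rule covered is named in the text. Small RNA genes, Dxz4, the histone map, the genes with neither motif and further list genes were added after their values were seen. No test was made, since the rule used the tumor YAP lists and H3K27ac has 1 library per tissue. Depth is unknown.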

Additional observations from a re-analysis of the deposited data

Results flagged for a closer look

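The mitochondrial chromosome lies outside the chromosomes used. YAP tumor 1 had 12 summits there and YAP tumor 2 had 13, above the 1 of YAP normal 1 and the 0 of YAP normal 2. Both H3K27ac lists had 0. The densest region by sites per kb, the nuclear copy of mitochondrial DNA on chromosome 1, had 5 summits in each tumor YAP library and 0 in each normal one.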

How the results depend on the processing

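No paired analysis was possible because the results come from no test. A percent was said to stay when it lay inside the Wilson interval of the main value, and a number of regions when it was within a set fold of it. These criteria are unlike, so the tally does not measure closeness. Of the settings tried for the number of regions, their H3K27ac, the tumor share and the genes overlapped, 28 values stayed and 46 moved. Among further values 5 stayed and 24 moved, and the cause was not tested. From the main values of 717 regions, 92.1% with tumor and 90.2% with normal H3K27ac inside, and 5.77% of genes, the values became 47, 80.9%, 85.1% and 0.259% with chaining within 5 kb; 1817, 95.4%, 92.8% and 21.4% within 25 kb; 1878, 84.8%, 79.8% and 11.7% with at least 3 sites. With at least 5 sites they became 311, 97.7%, 97.4% and 3.02%, with a score of at least 10 in both tumor YAP libraries 48, 97.9%, 97.9% and 0.698%, and with sites of tumor 2 and normal 2 10, 100%, 100% and 0.0277%. Summits within 100 bp gave 343 regions, 94.2% with tumor H3K27ac and 2.83% of genes, and within 500 bp 7.62% of genes. The genes came to 5.38% when sites within 1 kb counted as 1 element, 5.27% without sites near normal YAP, 7.32% with a gene end within 10 kb and 13.2% within 50 kb. Regions widened by 1 kb had tumor H3K27ac in 96.2% and normal in 94.0%, and the tumor list at equal length gave 78.0%. The tumor share of H3K27ac summits, 39.7%, moved to 41.8% at 5 kb, 43.2% with the score, 33.7% with tumor 2 and normal 2, 56.5% with the lists as deposited and 41.6% with summits within 2 kb merged. Leaving out a tumor YAP library gave 1303 to 3166 regions, tumor H3K27ac in 85.7% to 92.1%, normal in 79.4% to 89.9%, a tumor share of 39.3% to 39.6% and 10.03% to 20.3% of genes. The setting without regions at tRNA, rRNA or snRNA genes was chosen after seeing the data; it left 691 regions and 5.51% of genes. Summit lists give no depth, so what depth limits could not be measured.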
